A study of Drosophila melanogaster with 2 samples.

Results

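The messenger RNA library of adult fruitflies (Drosophila melanogaster) was described as a whole, by how its transcript mass was spread over genes. All 17698 gene IDs of the deposited table were members, with 34736 transcripts between them, and the level of a gene was the sum over its transcripts of TPM (a read count set against transcript length and scaled so that every library has the same total). Of these, 17660 lay outside the mitochondrial genome and 37 were mitochondrial genes, beside 1 listed mitochondrial locus, the control region mt:ori, which had a count of 0. The library was 1 of the 2 in the series and held 26179479 estimated counts (reads assigned to transcripts).

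The study asked how the ribonucleases Drosha and Dicer cut microRNA intermediates of zebrafish and fruitflies, and related cleavage to microRNA levels. Both libraries came from adult flies, labelled only as adult, with total RNA taken by Trizol. The labels and the paper do not give the sex, age, strain or genotype, the number of flies, any selection of polyadenylated RNA or the use of strand in counting. For the small RNA library the methods name individual adults as the source of the RNA, and they do not describe the mRNA library. With 1 mRNA library and no replicate, no difference could be tested, and the intervals below cover counting error only.

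Each mRNA of a cell competes for the same ribosomes, and in most animal tissues transcript mass falls very unevenly on genes. Genes for the ribosome itself, for translation and for energy metabolism are used by every cell, and their mRNAs are usually among the most abundant. The mitochondrial genome is transcribed apart from the nuclear one, from both strands into long precursors that are cut at the transfer RNAs, and it codes for core subunits of the respiratory chain and ATP synthase together with the RNAs needed to translate them.

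The 10 most abundant genes held 5.66% of all TPM, the top 100 held 26% and the top 1000 held 59.0%. The single most abundant gene, the large mitochondrial ribosomal RNA mt:lrRNA, held 0.948%. It took 562 genes to reach 50% of TPM, 5380 to reach 90% and 10293 to reach 99%. The median gene stood at 11.66 TPM and at 295 counts, and the median protein-coding gene at 22.34 TPM. Leaving out the mitochondrial genome and rescaling lowered the 3 shares to 4.09%, 24.3% and 57.7%. No single gene dominated the library, and 562 of 17698 genes carried as much TPM as all others together.

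**Figure D1:**
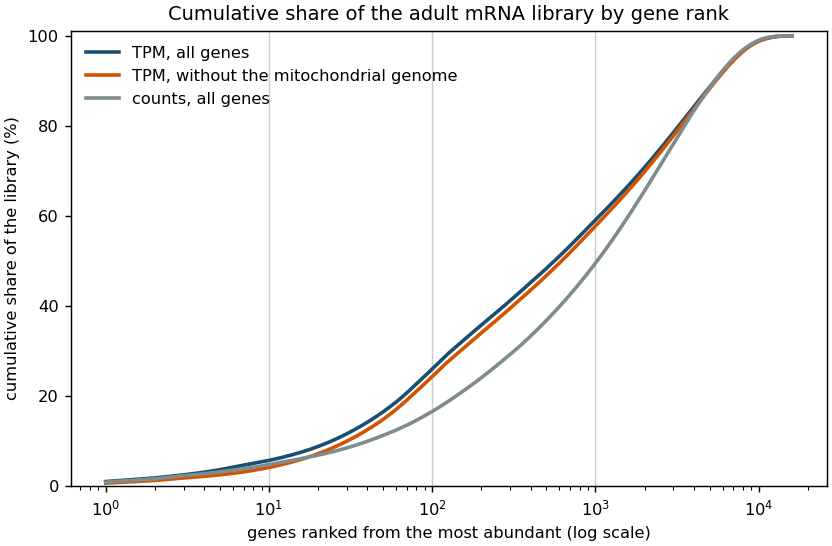
Cumulative share of the library (y axis, %) against the number of genes ranked from the most abundant (x axis, log scale), for TPM over all genes, TPM without the mitochondrial genome, and counts over all genes. The TPM curve passes 26% at 100 genes and 59.0% at 1000 genes, and the curve of counts lies lower there, at 16.5% and 49.5%.

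Ranked by counts instead, the same library was less concentrated in its top 10, 100 and 1000 genes. This did not hold further down. Counts reached 50% with 1026 genes, but 90% with 5371 and 99% with 9985, against 5380 and 10293 for TPM. The top 10 genes held 4.72% of counts (exact 95% interval 4.707% to 4.723%), the top 100 held 16.5% (16.51% to 16.54%) and the top 1000 held 49.5% (49.46% to 49.5%). These shares are rounded more coarsely than their intervals. TPM divides each count by transcript length, so short transcripts move up. Of the top 100 genes by TPM, 66 were among the top 100 by counts, and the overlap was 6 of 10 and 617 of 1000 at the other sizes. The edges of these ranks were shallow: Mst57Db at rank 10 stood at 3229.9 TPM and RpL27A at rank 11 at 3223 TPM, eEF5 at rank 100 at 1523 and RpL38 next at 1517, and tws at rank 1000 at 163 with CanB2 next at 162.

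Level classes by powers of 10 showed where genes and mass lay. In the highest class, 1000 TPM and more, there were 137 genes (0.774% of all genes) with 30.6% of TPM and 17.3% of counts. The class from 100 to 1000 TPM had 1616 genes (9.13%) with 37.8% of TPM. The class from 10 to 100 TPM was the largest, with 7429 genes (42.0%), 29.7% of TPM and 43.0% of counts. Below it, 4257 genes lay between 1 and 10 TPM with 1.75% of TPM, 2598 lay above 0 and under 1 TPM with 0.11%, and 1661 were listed at 0. In all, 13439 genes (75.9%) reached 1 TPM and 9182 (51.9%) reached 10 TPM.

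**Figure D2:**
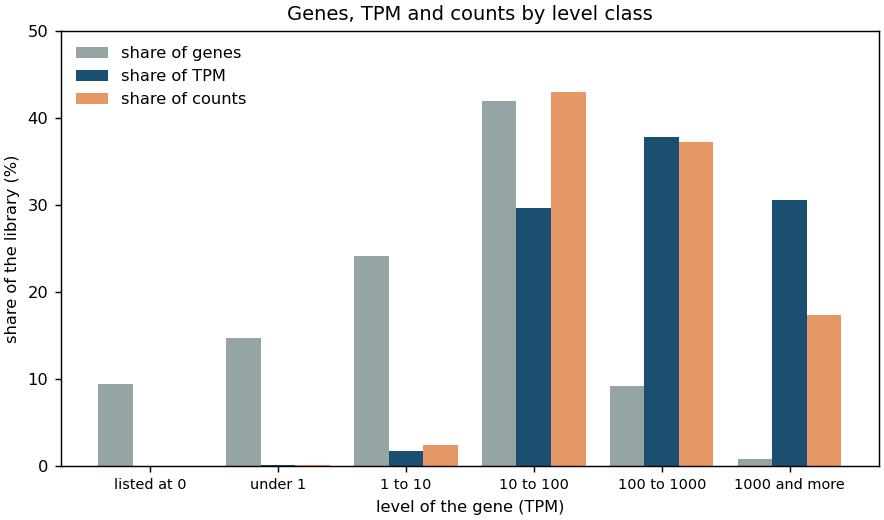
Share of the library (y axis, %) in each level class of genes (x axis, TPM), with separate bars for the share of genes, of TPM and of counts. Genes of 1000 TPM and more are 0.774% of genes and hold 30.6% of TPM, while the class from 10 to 100 TPM has the largest share of genes, 42.0%.

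The classes also differed in what kind of gene they held, which the ranking did not use. Protein-coding genes were 33.1% of the genes listed at 0, 51.7% of those under 1 TPM, 71.6% from 1 to 10 TPM, and 96.4%, 97.2% and 98.5% of the 3 classes above, against 78.0% of all genes. Coding genes known only by a CG number, the systematic name given to genes without a name of their own, were distributed in the opposite order. They were 64.5% of the coding genes listed at 0, 53.6% and 50.9% in the next classes, 42.8% from 10 to 100 TPM, 22.1% from 100 to 1000 TPM, and 6 of 135 (4.44%) at 1000 TPM and more. The mean number of transcripts listed per gene was 1.08 in the class at 0, 2.99 from 100 to 1000 TPM and 2.55 in the highest class.

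Transcript length, as implied by the ratio of counts to TPM, had a median of 1682 bases from 10 to 100 TPM, 1426 bases from 100 to 1000 TPM and 727.5 bases (quartiles 560.6 to 1014) at 1000 TPM and more, over genes with at least 20 counts. Length is itself a part of TPM, so this is a property of the measure as well as of the genes. The large nuclear arms held TPM roughly in step with their genes: 2L had 19.8% of genes and 18.2% of TPM, 2R 20.5% and 22.0%, 3L 19.5% and 17.5%, 3R 23.7% and 23.1%, and X 15.1% and 14.6%. Chromosome 4 had 0.627% of genes, 0.827% of TPM and 1.25% of counts. The Y chromosome stood apart, with 0.638% of genes and 0.0297% of TPM. Of its 113 genes 35 (31%) were without counts, against 9.32% of all genes.

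Counts were found for 16048 genes (90.7%), and 14041 had at least 10. In 21 of 25 mitochondrial genes checked, the count matched a value rounded up. A count of 1 can therefore stand for less than 1 estimated read, which bears most on the 2007 genes with 1 to 9 counts. A count of 0 was listed for 1650 genes (9.32%). Such a count is a limit and not absence: 3 counts in a transcript of 1000 bases equal 0.177 TPM at this depth, and more in a shorter one. Of the protein-coding genes 545 (3.95%) had a count of 0, and 353 of these (64.8%) had a CG number only. At 0.1 of the depth 14406 genes would be expected to have counts. A further 11 genes had counts but a TPM listed as 0.

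Several gene families known from few cells or from earlier stages held many genes without counts. These families were picked after the values had been seen and are a description. Among chemoreceptors, which detect odours and tastes in sensory neurons, 24 of 60 gustatory receptors, 16 of 59 odorant receptors and 22 of 66 ionotropic receptors had a count of 0, against 9.32% of all genes. Of the salivary glue genes, which larvae use to attach before the pupa forms, 8 of 11 had a count of 0 and the highest, Sgs8, had 4 counts. The ecdysone-induced Eig71E genes showed the same number, 8 of 11. A count of 0 was also listed for 8 of 17 larval cuticle Lcp genes, 7 of 23 Osiris genes and 6 of 29 pickpocket sodium channel genes.

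By annotated class, protein-coding genes held 96.5% of TPM. Long noncoding RNAs came next among the nuclear classes with 9372 TPM in all (0.937%) over 1924 genes. Of these 409 (21.3%) had a count of 0, against 9.32% of all genes. At 100 TPM or more there were 17, where 9.91% of all genes stood. The highest, lncRNA:CR42862 (3L:224106-230964, plus strand), stood at 564 TPM with 52101 counts. It was followed by lncRNA:CR9284 at 491 TPM and lncRNA:CR32658 at 425 TPM. The 490 antisense RNA genes summed to 2010.4 TPM, led by asRNA:CR45874 at 71.7 TPM, and each of the 3 highest overlapped a gene of the other strand, from which reads cannot be told apart when strand is not used in counting.

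Short structural RNAs held little of this library. How the mRNA library was prepared is not described, so these values describe the library and not levels in flies. Counts of 0 are to be read against 9.32% of all genes. The 257 microRNA genes summed to 104 TPM with 132 at a count of 0, the 258 small nucleolar RNA genes to 348 TPM and the 31 small nuclear RNA genes to 162 TPM. Of 290 nuclear transfer RNA genes, 238 had a count of 0. The nuclear ribosomal RNA genes were nearly empty, with 93 of 98 at a count of 0 and 6 counts in all. Ribosomal RNA pseudogenes, which resemble parts of the nuclear ribosomal RNA, summed to 1455 TPM over 18 genes with 36527 counts, led by 28SrRNA-Psi:CR40741 at 297 TPM. How reads that fit several copies of the ribosomal DNA were assigned is not given, so these values are uncertain.

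Outside the mitochondrial genome, ribosomal protein genes led. The 89 genes of the cytosolic ribosomal proteins held 18.0% of TPM (18.7% of the TPM outside the mitochondrial genome) and 8.01% of counts, with a median of 2109.7 TPM against 11.66 over all genes. Of them 81 (91.0%) reached 100 TPM, where 9.91% of all genes did, and 78 reached 1000 TPM, where 0.774% of all genes did. They made up 78 of the 137 genes of the highest class and 69 of the top 100. Of the 20 most abundant genes outside the mitochondrial genome, 15 coded for ribosomal proteins. Counts of list members at 100 or 1000 TPM given below are to be read against those 9.91% and 0.774% of all genes.

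The highest ribosomal protein gene was RpL41 (2R:24903416-24903935, minus strand), which codes for a very short peptide of the large subunit, at 5326 TPM (95% counting interval 5265 to 5388). Next came RpL19 at 3434 TPM (3402 to 3467), with an interval apart from that of RpL41. RpL27A at 3223, RpS25 at 3218 and RpLP2 at 3217 TPM had overlapping intervals and no order among them. RpS29 stood at 3129.8 TPM, RpS26 at 3112 and RpL10 at 3012 TPM. Between 2815 and 2984 TPM lay RpS3A, RpS15, RpS7, RpS23 and RpL37-1. Of the 19 neighbouring pairs in the top 20, 13 had overlapping counting intervals. Of the 20 genes 10 share positions with another gene and 4 with a gene of the other strand, RpL41 among them.

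Below this narrow group stood duplicate copies. RpS28a, at 2.94 TPM, was the lowest, followed by RpL37-2 at 9.71, RpL22-like at 14.1, RpS28-like at 15.1, RpS10a at 15.5, RpS19b at 35.2, RpL10Aa at 46 and RpS15Ab at 49.2 TPM. These 8 were the members under 100 TPM, and each is a second copy of a ribosomal protein gene. In contrast RpS5a and RpS5b, also paralogues, were at 1069.9 and 1002 TPM, a ratio of 1.07. How the counting split reads between similar copies is not given. The proteins of the mitochondrial ribosome, coded in the nucleus, were far lower: 72 genes held 0.46% of TPM with a median of 59.4 TPM, and 3 reached 100 TPM, led by mRpL12 at 236 TPM.

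**Figure D3:**
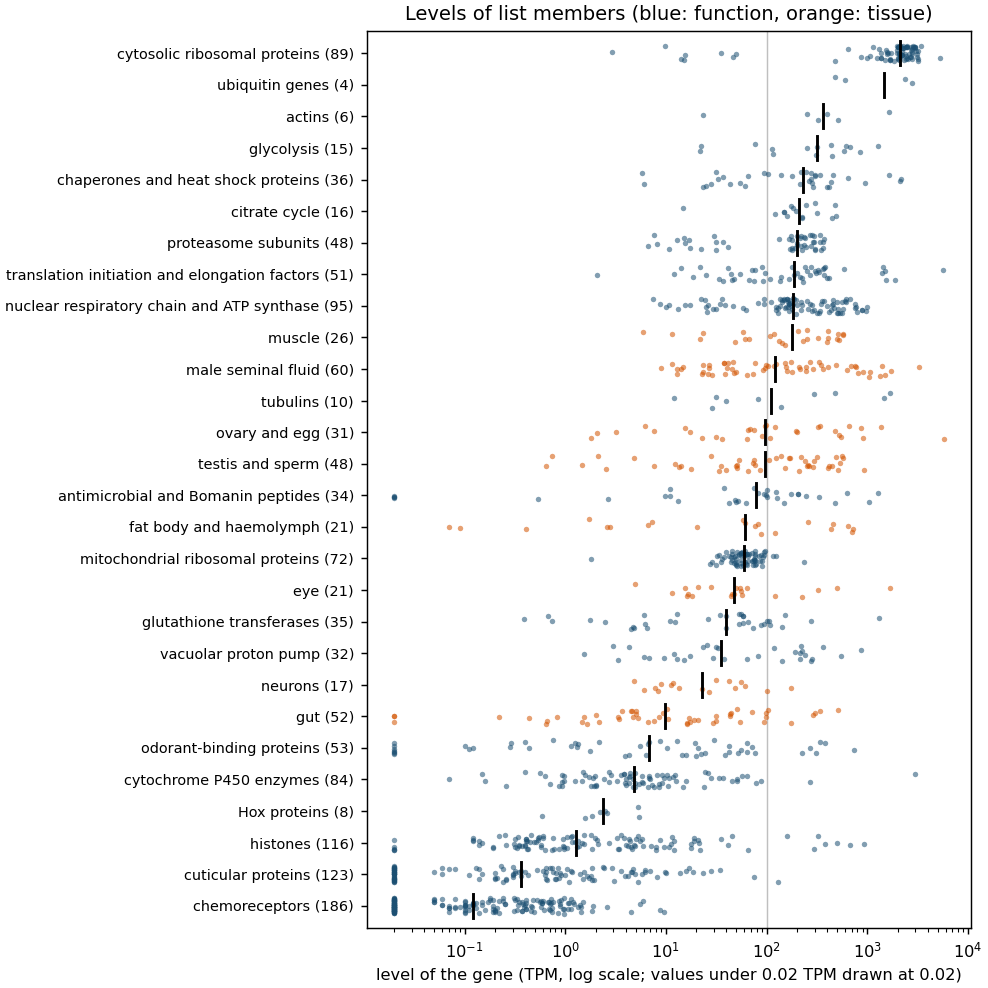
Level of each gene (points, x axis, TPM on a log scale) in each list of genes (y axis, number of members in parentheses), with a black bar at the median of the list and a grey line at 100 TPM; points under 0.02 TPM are drawn at 0.02. Ribosomal protein genes sit in a narrow band around 2109.7 TPM with a tail of low paralogues, and chemoreceptors lie under 10 TPM.

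The second most abundant gene outside the mitochondrial genome was a translation factor. eEF1alpha1 (2R:11891135-11895762, plus strand), which brings aminoacyl transfer RNAs to the ribosome, stood at 5691 TPM (5666 to 5716) with 195619 counts. That was 104-fold the level of its paralogue eEF1alpha2, at 55.0 TPM. The 51 translation factor genes held 2.14% of TPM, and 31 reached 100 TPM. After eEF1alpha1 came eEF2, which moves the ribosome along the mRNA, at 1874 TPM, and eEF5, which helps at stalling residues, at 1523 TPM.

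Genes of protein folding and breakdown held smaller shares. The 36 chaperone genes held 1.32% of TPM, with 23 at 100 TPM or more. Hsc70-4, the main cytosolic Hsp70 of unstressed cells, stood at 2178 TPM, Hsp83, the fly Hsp90, at 2094 TPM, and the small heat shock protein gene Hsp26 at 1659 TPM. The 48 proteasome genes were more even, with 0.855% of TPM, a median of 201 TPM, 33 at 100 TPM or more and a highest level of 369 TPM in Prosalpha2. The 4 ubiquitin genes held 0.617% of TPM, of which RpS27A at 2755 TPM and RpL40 at 2346 TPM also code for ribosomal proteins and are counted in both lists.

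Genes of energy metabolism in the nucleus were widely but moderately abundant. The 95 nuclear genes of the respiratory chain and ATP synthase held 2.66% of TPM, near the 2.64% of the 13 coding genes of the mitochondrial genome. Of the nuclear genes 72 reached 100 TPM, and their median was 183 TPM. None reached 1000 TPM. Their highest were genes of ATP synthase, ATPsynbeta for the catalytic beta subunit at 987 TPM, blw for the alpha subunit at 978 TPM, and ATPsynF at 894 TPM. Of the 15 glycolysis genes 12 reached 100 TPM, led by Gapdh2 at 1274, Gapdh1 at 849.8 and Eno at 676 TPM, while Ldh, which turns pyruvate into lactate, was the lowest at 22.0 TPM. Of the 16 genes in the citrate cycle list 15 reached 100 TPM. The highest listed were Idh at 489 TPM, Mdh2 at 478 TPM and Mdh1, the cytosolic malate dehydrogenase, at 443 TPM. Not every listed gene need act in the cycle itself. The 32 genes of the vacuolar proton pump were less even, with 13 at 100 TPM or more and a median of 35.1 TPM below the highest, Vha13, at 864 TPM.

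Some families owed much of their mass to 1 gene. Of the 84 cytochrome P450 genes 2 reached 100 TPM. Cyp4g1 (X:467057-469335, minus strand), which makes the hydrocarbons of the cuticle in oenocytes, stood at 3006 TPM (2989 to 3023) and held 71.4% of the TPM of the family. The next, Cyp6a19, was at 273 TPM, a ratio of 11.0, and the median of the family was 4.81 TPM. Glutathione transferases were led in the same way by GstD1 at 1321 TPM, with 42.9% of the TPM of their 35 genes. Among the actins 5 of 6 genes were at 100 TPM or more. The cytoplasmic Act5C stood at 1639 TPM and held 52.2% of the TPM of the family. It was 3.23-fold above the next, Act57B, at 507 TPM, and Act88F of the flight muscle was the lowest at 23.6 TPM. Of the 10 tubulin genes betaTub56D stood at 1682 TPM, alphaTub84B at 1461 and the maternal alphaTub67C at 477 TPM.

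Secreted peptides of defence were abundant and those of the cuticle were not. Of the 34 genes of antimicrobial peptides and Bomanins, which are released into the haemolymph on infection, 14 reached 100 TPM. BomS3 stood at 1287 TPM, the antifungal Drs at 1045 TPM and BomS2 at 636 TPM. Of the 123 cuticular protein genes 34 had a count of 0 and 1 reached 100 TPM, Cpr65Au at 131 TPM, and their median was 0.36 TPM. The 116 histone genes had a median of 1.28 TPM, and the highest were the variants made outside replication, His2Av at 934, His4r at 675 and His3.3B at 496 TPM. The replication-dependent histone genes are near-identical repeats, and reads shared among them make single values uncertain.

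Sensory and patterning genes were at the low end. The 186 chemoreceptor genes held 0.00915% of TPM with a median of 0.12 TPM. None reached 10 TPM, the highest being Ir75d at 9.64, Or43b at 8.76 and Orco, the shared odorant co-receptor, at 5.88 TPM. Odorant-binding proteins, small secreted carriers, were higher, with 0.302% of TPM over 53 genes. Their highest were Obp56g at 745 and Obp51a at 384 TPM, both also known from seminal fluid. The 8 Hox genes, which set segment identity, lay between 0.59 TPM (lab) and 5.38 TPM (Abd-B).

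Lists of genes known from single tissues were then read. In RNA of whole animals or mixed tissue, fewer cells of a type and less RNA per cell cannot be told apart. Genes of both sexes were abundant. The 31 genes of the ovary and egg held 1.31% of TPM, of which dhd (X:5312171-5313125, plus strand) alone gave 44.1%. dhd, a thioredoxin of the female germline needed for the egg to activate, was the most abundant gene outside the mitochondrial genome, at 5775 TPM (5734 to 5817) with 75392 counts. The vitelline membrane gene Vm34Ca followed at 1361 TPM and the yolk protein gene Yp1 at 913 TPM, while the germ plasm gene osk stood at 479.6 TPM. The chorion genes, whose proteins form the eggshell, ran from 196 TPM in Cp18 and 96.5 TPM in Cp19 down to 1.81 TPM in Cp7Fa.

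Among male lists, the 60 genes of seminal fluid held 2.16% of TPM and 0.717% of counts. As first written, without the Mst57D genes, the list held 1.71% of TPM. EbpIII of the ejaculatory bulb, at 1829.6 TPM, was in no list and is not counted in these shares. Obp56g at 745 and Obp51a at 384 TPM were in the list of odorant-binding proteins and are not counted here either. The list need not hold every gene of seminal fluid, so its share can be too low. Of the 60 genes 32 (53.3%) reached 100 TPM, against 9.91% of all genes, and 7 reached 1000 TPM, where 0.774% of all genes did. Mst57Db (3R:25830720-25830914, minus strand), made in the accessory gland, stood at 3229.9 TPM (3169 to 3292). EbpII of the ejaculatory bulb was at 1707 TPM and Sfp87B at 1495 TPM. Of the 48 genes of testis and sperm 24 (50%) reached 100 TPM. Mst87F stood at 934, Mst84Db at 574 and the sperm leucyl aminopeptidase S-Lap1 at 558 TPM. The sex of the flies is not given, and the values show that RNA with both ovary and male reproductive transcripts was sequenced.

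Among somatic tissues, muscle had 18 of its 26 genes (69.2%) at 100 TPM or more, against 9.91% of all genes. Its highest were Mlc2 at 576, Mf at 570.0 and Zasp66 at 524 TPM. Its lowest were genes known from the indirect flight muscle, TpnC4 at 5.86, fln at 11.4 and Act88F at 23.6 TPM, with TpnC47D at 21.9 TPM. In the eye list ninaE, the rhodopsin of the outer photoreceptors, stood at 1671 TPM and the arrestins Arr2 and Arr1 at 503 and 322 TPM. Those 3 were among 5 of 21 (23.8%) that reached 100 TPM. Gut proteases were led by alphaTry at 511 and Jon99Cii at 342 TPM. Of the 52 genes of the gut list 6 (11.5%) reached 100 TPM, near the 9.91% of all genes. In the list of fat body and haemolymph, Adh stood at 717, Fer1HCH at 702 and Fer2LCH at 641 TPM.

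The larval storage protein genes of the same list, Lsp1alpha, Lsp1beta, Lsp1gamma and Lsp2, were at 0.09, 2.62, 1.74 and 2.81 TPM, and the larval gene Fbp1 at 0.07 TPM. These larval genes were named after their values had been seen, and the adult label was not checked by them. Neuronal genes had a median of 23.0 TPM, near the 22.34 TPM of all protein-coding genes, and 1 of 17 (5.88%) reached 100 TPM, against 9.91% of all genes. Csp stood at 176 TPM, cpx at 99.9, Syt1 at 61.4 and elav, an RNA-binding protein of all neurons, at 4.82 TPM. All 17 had counts.

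Lists and the mitochondrial genome together covered 1414 genes, 39.2% of TPM and 25.3% of counts, and the 16284 genes in no list held 60.8% of TPM. At 1000 TPM and more, 27 of the 137 genes were in no list. Examples were named after their values had been seen. The highest were Met75Ca at 2932 TPM (2880 to 2985) and CG18628 at 2653 TPM. Among the others were awd, a nucleoside diphosphate kinase, at 2185 TPM, Rack1, a scaffold on the small ribosomal subunit, at 2091 TPM, and Tctp at 1983 TPM. EbpIII of the ejaculatory bulb stood at 1829.6 TPM. me31B, an RNA helicase that holds maternal mRNAs silent, was at 1736 TPM, the chromatin factor Df31 at 1617 TPM and the mitotic cyclin CycB at 1593 TPM. Met75Cb stood at 2139.6 and whe at 2105 TPM, and CG43147 at 1531 TPM. The 138 gene IDs without a symbol could enter no list and held 0.936% of TPM, with 20 at 100 TPM or more. The highest of them, FBgn0260441 (3L:13023352-13024762), stood at 1939 TPM with 19990 counts and has the exact position of the ribosomal protein gene RpS12 in RefSeq. With it, cytosolic ribosomal proteins would hold 18.2% of TPM.

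The 37 genes of the mitochondrial genome summed to 36789.5 TPM, or 3.68% of TPM, and to 685059 counts, or 2.62% of counts. They filled 5 of the top 10 ranks and 11 of the top 1000. The 13 protein-coding genes held 71.9% of mitochondrial TPM, the ribosomal RNAs 27.2% and the 22 transfer RNA genes 0.89%. Within the coding genes mass was far from even, with a 1660-fold range.

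Complex IV, which passes electrons to oxygen, held 53.4% of mitochondrial TPM with 3 genes. mt:CoIII stood at 8029 TPM (7981 to 8078), mt:CoI at 6896 TPM (6864 to 6928) and mt:CoII at 4718 TPM (4679 to 4758), 3 levels with intervals apart. mt:Cyt-b, the mitochondrial subunit of complex III, was at 4037 TPM (4009 to 4066) and held 11.0%. These 4 genes lay within 1.99-fold of each other and gave 64.4% of mitochondrial TPM. The 9 other coding genes gave 7.51%.

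Complex I, where electrons of NADH enter, held 6.33% with 7 genes. mt:ND1 stood at 816 TPM, mt:ND5 at 535, mt:ND3 at 464 and mt:ND4 at 453 TPM, the last 2 with overlapping intervals (447.1 to 481.8 and 444.7 to 462.3). The other 3 were far lower. mt:ND4L was at 36.2 TPM (31.06 to 41.9), mt:ND2 at 18.1 TPM (16.11 to 20.16) and mt:ND6 at 4.84 TPM (3.503 to 6.519) on 43 counts. For ATP synthase, mt:ATPase6 stood at 361 TPM and mt:ATPase8 at 74.3 TPM.

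**Figure D4:**
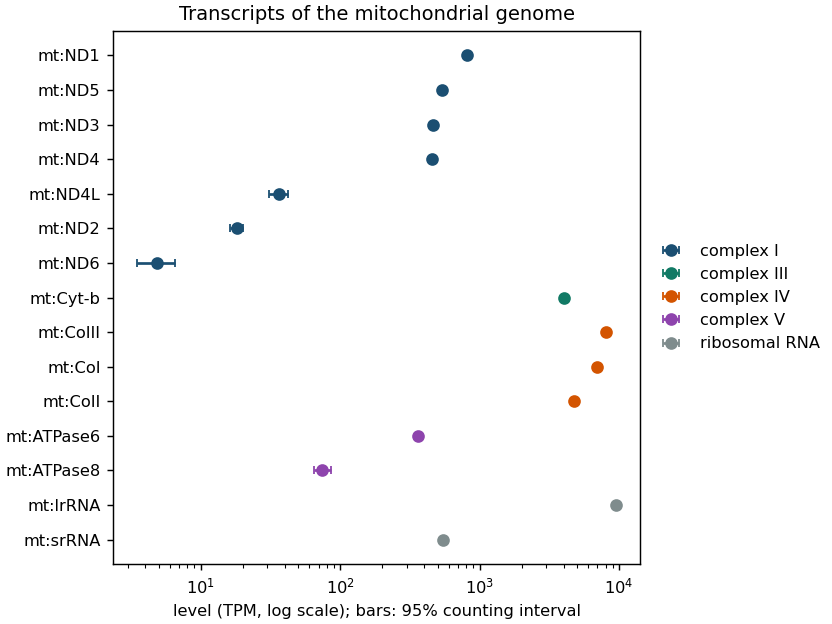
Level of the mitochondrial ribosomal RNAs and coding genes (x axis, TPM on a log scale), coloured by the complex the gene belongs to, with bars for the exact 95% counting interval where it is wider than the point. The 3 genes of complex IV and mt:Cyt-b are the 4 highest coding genes, and mt:ND6 is the lowest at 4.84 TPM.

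Some neighbours on the mitochondrial genome had like levels and others did not. mt:CoI and mt:CoII differed 1.46-fold, and mt:ND5 and mt:ND4 differed 1.18-fold. mt:ATPase8 (MT:3907-4068), mt:ATPase6 (MT:4062-4736) and mt:CoIII (MT:4736-5524) follow and touch or overlap each other on the plus strand, and stood at 74.3, 361 and 8029 TPM, so mt:CoIII was 22.3-fold above mt:ATPase6. mt:ND4L and mt:ND4 overlap on the minus strand and differed 12.5-fold. No transfer RNA gene is listed between them, or between mt:ATPase8 and mt:ATPase6. Whether these ratios are between separate transcripts was not tested. mt:ND2 and mt:CoI on the plus strand differed 382-fold. Reads in overlapping ends can be assigned to either gene, and how the authors assigned them is not given. Coding genes of the plus strand, 9 of the 13, gave 66.9% of mitochondrial TPM, and those of the minus strand 5.0%.

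The ribosomal RNAs were unlike each other in this library. Any selection for polyadenylated RNA is not given, so their ratio describes the library and need not hold in the flies. mt:lrRNA (MT:12734-14058, minus strand) stood at 9476 TPM (9435 to 9516) on 212412 counts, the most counts of any gene and 1.66-fold the TPM of eEF1alpha1. mt:srRNA (MT:14131-14916, minus strand) stood at 542 TPM (530.0 to 555.1) on 7210 counts, so the pair differed 17.5-fold. Of the 22 transfer RNA genes 1 had a count of 0, and the highest were mt:tRNA:Leu-TAA at 108 TPM (89.71 to 129.4), mt:tRNA:Lys-CTT at 47.8 TPM (36.23 to 61.98) and mt:tRNA:Gly-TCC at 38.3 TPM (27.62 to 51.8). Together the transfer RNA genes had 376 counts.

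Ribosomal proteins were the leading list by TPM and by counts, but the leading single genes differed between the measures. By counts the first 10 genes were mt:lrRNA, eEF1alpha1 with 195619 counts, mt:CoI with 179229, Cyp4g1 with 115940, mt:CoIII with 107125, Hsp83 with 96117, eEF2 with 87762, Hsc70-4 with 87208, mt:Cyt-b with 77650 and dhd with 75392. None of these was a ribosomal protein gene. Hsc70-4, Hsp83 and eEF2 were at ranks 55, 63 and 80 by TPM. Of the 34 lists, mitochondrial ones included, 21 held a smaller share of counts than of TPM and 13 a larger share. Ribosomal proteins held 18.0% of TPM and 8.01% of counts, seminal fluid 2.16% and 0.717%, defence peptides 0.59% and 0.146%, and odorant-binding proteins 0.302% and 0.108%. Muscle held 0.609% of TPM and 0.912% of counts, and neurons 0.0638% and 0.158%. The first 4 of these lists had median transcript lengths of 642.5, 412.7, 386.1 and 578.5 bases, and muscle and neurons 1647 and 4985 bases, against 1644 bases over all genes with at least 20 counts.

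**Figure D5:**
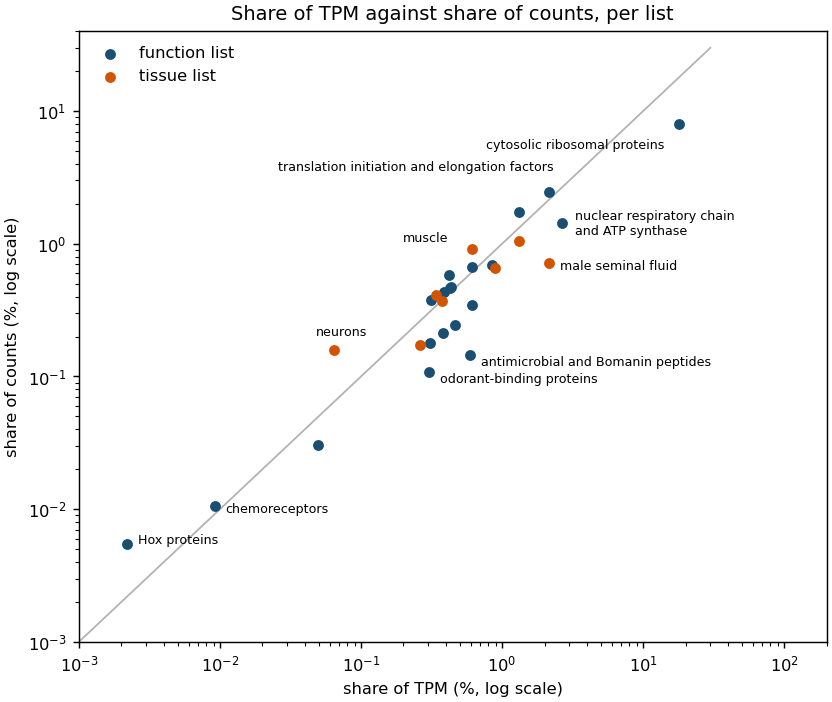
Share of counts (y axis, %, log scale) against share of TPM (x axis, %, log scale) for each list of genes outside the mitochondrial genome, with a grey line where the shares are equal. Ribosomal proteins (18.0% of TPM, 8.01% of counts) and male seminal fluid lie below the line, and neurons and muscle lie above it.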

How the data were processed

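The authors' deposited table lists each transcript with a count, a TPM and an FPKM. The deposited counts are whole and not normalized, and were treated as estimated counts after rounding: in 21 of 25 mitochondrial genes with 1 to 999 counts the count equalled the value implied by TPM rounded up, and rounding could add at most 0.115% to the total. The TPM made by the authors were summed over the transcripts of a gene, and the authors' FPKM was used only to check that it is proportional to TPM (ratio 0.629 to 0.63 above 10 TPM). The submitters' processing notes for the series list CASAVA and HISAT2. The counter, the build and the annotation were not given in the sources used. Symbols were found for 17560 gene IDs (99.2%). Of 17522 genes matched to RefSeq by symbol, 17395 (99.3%) had the start and end of Release 6, and positions are given as in that release. Gene classes came from RefSeq, and 138 gene IDs had no symbol.

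Shares, ranks and classes were computed in Python 3.11.15 with pandas 2.3.3, numpy 2.4.6 and scipy 1.17.1, and the ranking and shares were tested on simulated data. No test was run on 1 library. Intervals are at 95%, exact Clopper-Pearson for shares of counts and exact Poisson for a gene, carried to TPM. A count of 0 allows 3 counts. In a transcript of 1000 bases 1 count equals 0.0591 TPM.

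The members and lists were chosen with earlier results of these data known. Genes named are the 20 highest by TPM outside the mitochondrial genome, the 10 highest by counts, the mitochondrial genes with counts (the 3 highest transfer RNAs), and the 3 highest of each list and class. Some genes that this rule names are not reported here. Others, such as low paralogues, rank neighbours, larval genes and genes in no list, were named after their values were seen. The lists were corrected after values were seen: the accessory gland genes Mst57Da, Mst57Db and Mst57Dc were moved from testis to seminal fluid, the cyclophilins Cyp1 and Cyp40 were removed from the cytochrome P450 list, and the centrosomal genes Cp110 and Cp190 from the ovary list. Alternatives were counts in place of TPM, the most abundant transcript, coding genes alone, a minimum of 10 counts, and leaving out the mitochondrial genome, the leading gene or the ribosomal proteins. Protein length and promoter sequence were not used here.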

Additional observations from a re-analysis of the deposited data

How the results depend on the processing

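The shares of the top 10, 100 and 1000 genes (5.66%, 26% and 59.0% of TPM) depended on the measure. Counting intervals were computed for shares of counts only. They were 4.72%, 16.5% and 49.5% of counts, 4.09%, 24.3% and 57.7% without the mitochondrial genome, 6.26%, 27.5% and 60.4% with the most abundant transcript of each gene, 5.22%, 26% and 59.5% over coding genes alone, and 5.08%, 25.4% and 58.7% without mt:lrRNA. With genes under 10 counts set to 0 they were nearly unchanged, at 5.67%, 26% and 59.1%. An alternative chosen after seeing the data, leaving out the mitochondrial genome and the ribosomal proteins, gave 4.07%, 17.1% and 49.6%. The number of genes at 1 TPM or more was 13439, and 11943 to 13458 under the alternatives. Genes with counts were 16048, and 13260 to 14406 under the alternatives. Both lowest numbers are those of coding genes alone, which are a subset of the genes and not another way to process them. Of the 34 lists, 16 differed by more than 1.5 times between TPM and counts. With the lists as first written, cytochrome P450 enzymes held 0.55%, testis 1.34%, ovary and egg 1.32% and seminal fluid 1.71% of TPM. No paired analysis was possible because the series holds 1 mRNA library. Depth limits genes under about 0.177 TPM in a transcript of 1000 bases. All values describe 1 library, and how far another library of adult flies would differ was not tested.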
